A study of Gossypium hirsutum with 2 samples.

Results

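PROTODERMAL FACTOR 2 (PDF2) is a homeobox transcription factor of plant epidermal cells, and 2 assembled cotton transcripts annotated with its name, Unigene0039009 and Unigene0089152, are described here. They were chosen from the 6 unigenes with a PDF2 text, among 136262 unigenes in all, with their ratio between the libraries known. Their ratios are therefore given as a description, with no test.

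The data come from upland cotton (Gossypium hirsutum) sampled 10 days after anthesis, with 1 library per group, in a series that lists the search for RNA editing sites as its aim. The FL ovule library was made from ovules of XZ142FLM, a line of genotype li3li3n2n2 described in the labels as having seeds without fuzz or lint and little fiber growth. The WT fiber library was made from fiber of the wild-type cultivar Xuzhou142. Tissue and genotype differ together between the groups, so their parts in any difference cannot be told apart. An ovule holds several cell types, of which the epidermis is only the outermost layer, whereas fiber consists of single cells that grow out of that layer. In such bulk samples, fewer cells of a type and less RNA per cell cannot be told apart.

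PDF2 belongs to class IV of the homeodomain-leucine zipper (HD-ZIP) proteins, which combine a DNA-binding homeodomain, a leucine zipper for dimerization and a lipid-binding START domain. In Arabidopsis, PDF2 and its close relative ATML1 act redundantly to specify the outer cell layer of shoots and embryos, and they bind the L1 box, a short promoter element of epidermal genes. Other members of the class have narrower roles. GLABRA 2 promotes trichome differentiation in Arabidopsis, HDG2 (HOMEODOMAIN GLABROUS 2) promotes stomatal differentiation there, and cotton HOX3 promotes fiber elongation. The texts ATML1 and ANTHOCYANINLESS 2 matched no row in the tables used here, and GLABRA 2 matched only as GL2-like 1. Sequences are not shown, because the tables give none and no unigene identifier matched the reference gene table used here.

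The FL ovule library had 53.4 M unique reads and the WT fiber library 45.6 M. Levels are given as RPKM, in which reads are divided by unigene length in kilobases and by the library total. Unigenes that reached 1 RPKM in either library are termed measured, and there were 63258 of them. Of these, 15.3% were at least 2-fold higher and 10.5% at least 2-fold lower in FL ovule, on the scale of RPKM plus a pseudocount of 1. FL ovule was the higher library in 59.3% of these differences, a share that ran from 23.3% to 81.7% under other scalings. Over the measured unigenes the log2 ratio had a median of 0.39, which ranged from -0.28 to 0.69 under 6 other scalings of the libraries. Markers followed the labelled tissues in part, and their part in the results was not tested. Texts of fiber proteins summed to 1641 RPKM in FL ovule and 11490 RPKM in WT fiber, with 1 of 94 texts without a read in each library. Texts of the inner seed coat summed to 349.8 RPKM in FL ovule and 122 RPKM in WT fiber. Texts with xylem, phloem or other vascular words in the name summed to 243 RPKM in FL ovule and 2203 RPKM in WT fiber. Such a name does not show in which cells a protein is made. Of the WT fiber sum, 2111 RPKM came from 1 xylem bark cysteine peptidase text (Unigene0061017).

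Both selected unigenes were detected in both libraries and were several times more abundant in FL ovule. Unigene0039009 had 9.44 RPKM in FL ovule, from 129 reads, and 0.428 RPKM in WT fiber, from 5 reads. This is a 22.0-fold higher level in FL ovule, with a 95% counting interval of 9.21 to 69.0. The interval is wide because the WT fiber value rests on few reads. Unigene0089152 had 14.6 RPKM in FL ovule, from 526 reads, and 1.52 RPKM in WT fiber, from 47 reads. The level in FL ovule was 9.56-fold higher, with a counting interval of 7.09 to 13.2. These intervals are exact (Clopper-Pearson), cover counting error only and treat reads as independent molecules, which reads without molecular identifiers are not. No replicate checks either difference.

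On the log2(RPKM + 1) scale the ratio of FL ovule over WT fiber was 2.87 for Unigene0039009 and 2.63 for Unigene0089152. Relative to the median of all measured unigenes, the ratio of Unigene0039009 was 2.48 and lay between 2.46 and 2.72 under the 7 scalings. The corresponding value of Unigene0089152 was 2.23, with a range of 2.23 to 2.39. Among 300 measured unigenes with a homeobox text of any kind, Unigene0039009 ranked 1 and Unigene0089152 ranked 5 by this ratio, which is the value that led to their choice. By RPKM in FL ovule Unigene0089152 ranked 32 and Unigene0039009 ranked 46. By RPKM in WT fiber their ranks were 159 for Unigene0089152 and 262 for Unigene0039009.

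The 2 unigenes are short, and their deposited coverage values, whose definition is not given, differed. Unigene0039009 has 256 bases and a coverage value of 98.8% in FL ovule and 74.6% in WT fiber. Unigene0089152 has 676 bases. Its coverage value was 71.3% in FL ovule and 68.8% in WT fiber although FL ovule had 526 reads on it and WT fiber 47. For comparison, Unigene0146519, another PDF2 text of 848 bases, had a coverage value of 99.4% in FL ovule, with 629 reads. In WT fiber its value was 86.9%, with 86 reads. The header calls the counts unique reads, and how reads that match several unigenes were treated was not stated. Near-identical copies from the subgenomes of upland cotton, or fragments of 1 transcript, could divide reads between unigenes, so the value of a single unigene is uncertain in that respect. Identifiers close in number recur within the class: Unigene0089148 to Unigene0089151 include 3 measured unigenes with an HDG2 text, and Unigene0089152 follows them directly. What adjacent numbers mean in this assembly is not given in the sources used here.

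All 6 unigenes with a PDF2 text had a higher RPKM in FL ovule. By deposited RPKM this was the more common direction, because the log2 ratio had its median at 0.39 over the measured unigenes. The exact share of unigenes with this direction is not given here. Of the 6, all were measured, 4 were higher in FL ovule by 2-fold or more and 0 were lower by that much, beside the background of 15.3% and 10.5%. The rule used this contrast for 2 of these 4, so the count is a description. The summed level of the 6 was 44.2 RPKM in FL ovule and 5.73 RPKM in WT fiber, a ratio of 7.72. The selected pair held 54.3% of this sum in FL ovule and 34.0% in WT fiber, shares that no scaling of the libraries changes. Without the pair, the log2 ratio of the summed level was 2.42 instead of 2.95.

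The remaining 4 texts fell into 3 groups by wording. Unigene0146519 carries the same text as the pair, "isoform 6" of the cacao protein, and had 13.9 RPKM in FL ovule and 2.22 RPKM in WT fiber, a 6.25-fold higher level in FL ovule (4.98 to 7.92). It is the same-text unigene left outside the selection, and its log2 ratio was 2.21. Unigene0146311, annotated from a chickpea PDF2-like protein and at 1996 bases the longest of the 6, had 3.33 RPKM in FL ovule and 0.253 RPKM in WT fiber, which is 13.2-fold higher in FL ovule (8.65 to 21.1). Its fold thus exceeded that of Unigene0146519, while its log2 ratio of 1.79 was smaller because the pseudocount weighs more at low levels.

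The pair with the "isoform 1" text of the cacao protein had the lowest levels of the 6 in FL ovule. Unigene0101208 had 1.94 RPKM in FL ovule and 1.16 RPKM in WT fiber, from 145 reads in FL ovule and 74 reads in WT fiber. Its ratio of 1.67 (1.26 to 2.25) was the smallest of the 6 and depended on the scaling. The log2 ratio of Unigene0101208 ranged from 0.02 to 0.75 under the 7 scalings. Without rescaling it lay 0.05 above the median of all measured unigenes. Unigene0101207 had 1.06 RPKM in FL ovule and 0.145 RPKM in WT fiber, where the WT fiber value rests on 9 reads. Its level was 7.31-fold higher in FL ovule (3.66 to 16.6), but its log2 ratio with the pseudocount was 0.85, below 2-fold. Its ratio passed 2-fold as well if the 30 most-read unigenes were dropped from the library totals. These are the texts among the 6 whose deposited gene ontology terms include epidermis development. Unigene0039009 and Unigene0146519 carry terms for floral organ development and for cell morphogenesis, and Unigene0089152 and Unigene0146311 carry none. The HDG2 texts Unigene0052013 and Unigene0134888 carry the same terms as Unigene0039009 and Unigene0146519. The names used here rest on the annotation text alone, and whether the "isoform 6" texts name PDF2 or HDG2 was not tested.

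**Figure D1:**
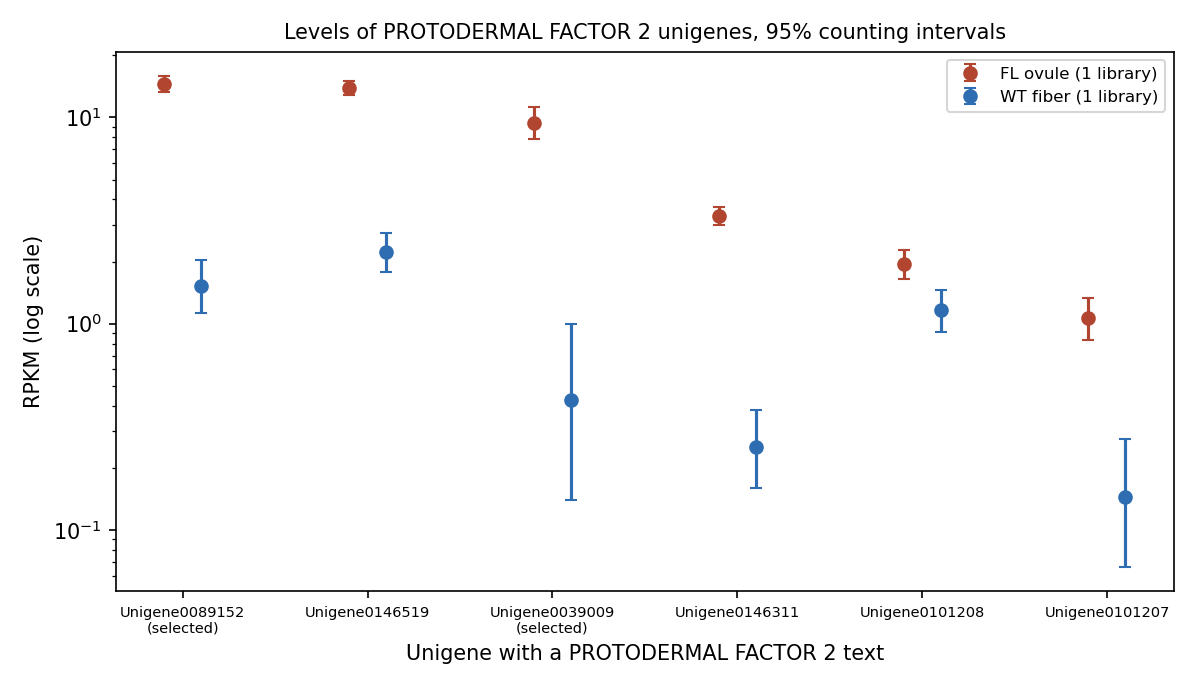
RPKM (log scale) of the 6 unigenes with a PROTODERMAL FACTOR 2 text in FL ovule (left point of each pair) and WT fiber (right point), 1 library each; bars are exact 95% Poisson counting intervals. All 6 are higher in FL ovule by deposited RPKM. The gap is narrowest for Unigene0101208, at 1.94 RPKM in FL ovule and 1.16 RPKM in WT fiber, and its size depends on the scaling.

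The order of the 6 levels differed between the libraries. In FL ovule Unigene0089152 (13.4 to 15.9 RPKM as a 95% Poisson interval) and Unigene0146519 (12.8 to 15.0 RPKM) led with overlapping intervals. Unigene0039009 followed at 7.88 to 11.2 RPKM, and the next 3 intervals lay apart from it and from each other, at 2.99 to 3.70, 1.64 to 2.29 and 0.836 to 1.32 RPKM. In WT fiber Unigene0146519 was highest at 1.78 to 2.75 RPKM, with an interval that overlapped that of Unigene0089152 (1.12 to 2.03 RPKM). Unigene0101208 came next at 0.912 to 1.46 RPKM, whose interval overlaps that of Unigene0089152. The other 3, Unigene0039009 among them at 0.139 to 0.999 RPKM, could not be ordered at this depth, and the interval of Unigene0039009 also reached that of Unigene0101208.

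The folds of the 6 unigenes were compared pair by pair with an exact conditional interval of the ratio of folds, which does not depend on library scaling and covers counting error only. Since Unigene0039009 and Unigene0089152 were chosen for their ratio, only the 6 pairs without them were read against 1. Of these, 4 had an interval that excluded 1. The fold of Unigene0101208 was 0.229 times that of Unigene0101207, which carries the same text (0.0959 to 0.494). Unigene0146311 exceeded Unigene0101208 by a factor of 7.88 (4.65 to 13.7), and Unigene0146519 exceeded it by a factor of 3.73 (2.56 to 5.43). The fold of Unigene0146519 was 0.474 times that of Unigene0146311 (0.280 to 0.775). Between the selected unigenes, the fold of Unigene0089152 was 0.434 times that of Unigene0039009, with an interval of 0.132 to 1.12. That interval is not read against 1, because both were chosen for their ratio. As a description of the selection, the fold of Unigene0089152 was 1.53 times that of the same-text Unigene0146519, which was left out.

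Class IV unigenes with other names divided by text. The list of class IV texts held 31 unigenes, 18 of them measured. Of these 18, 11 were higher in FL ovule by 2-fold or more and 3 were lower by that much, counts that stayed at 11 and 3 under 5 other scalings and became 13 and 3 with totals that drop the 30 most-read unigenes. The background shares were 15.3% and 10.5%, and the 18 include the 6 PDF2 texts. The 18 also include the selected pair, whose ratios were known. Without that pair the counts were 9 and 3 of 16, and the median log2 ratio was 1.63 instead of 1.78, beside 0.39 over all measured unigenes.

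HDG2 texts resembled PDF2 texts in direction. All 14 of them had a higher RPKM in FL ovule, and of 7 measured ones 6 were at least 2-fold higher there. Their summed level was 46.1 RPKM in FL ovule and 5.58 RPKM in WT fiber. Unigene0052013 was the most abundant, at 17.2 RPKM in FL ovule and 2.23 RPKM in WT fiber, which is 7.73-fold higher in FL ovule (5.93 to 10.2). Unigene0089151, whose identifier precedes that of the selected Unigene0089152, had 8.61 RPKM in FL ovule and 0.427 RPKM in WT fiber, a 20.2-fold higher level (10.0 to 47.4) on 8 reads in WT fiber. The measured exception, Unigene0089150, had 2.39 RPKM in FL ovule and 0.998 RPKM in WT fiber, a log2 ratio of 0.76 that passed 2-fold only without the 30 most-read unigenes. Between these, Unigene0062235 had 5.46 RPKM in FL ovule and 0.631 RPKM in WT fiber, an 8.66-fold higher level in FL ovule (6.20 to 12.4). Unigene0062231, Unigene0089148 and Unigene0134888 had 2.92 to 3.91 RPKM in FL ovule and 0.181 to 0.447 RPKM in WT fiber. Unigene0062230, chosen after its values were seen, had 40 reads in FL ovule and 0 in WT fiber, so it was at least 11.4-fold higher in FL ovule against a floor of 3 reads.

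Cotton HOX3 went the other way. The 4 unigenes annotated as the Gossypium hirsutum homeodomain protein HOX3 had lower RPKM in FL ovule, and the 3 measured ones were at least 2-fold lower under all 7 scalings. Without rescaling, 10.5% of all measured unigenes were at least 2-fold lower. Unigene0068254 had 1.41 RPKM in FL ovule, from 89 reads, and 46.8 RPKM in WT fiber, from 2530 reads. It was 33.3-fold lower in FL ovule (26.9 to 41.6) and had the lowest log2 ratio, -4.31, of the 300 measured homeobox unigenes. Unigene0068251 had 0.364 RPKM in FL ovule and 8.08 RPKM in WT fiber, 22.2-fold lower in FL ovule (15.2 to 33.7). Unigene0068252 had 2 reads in FL ovule and 130 in WT fiber, a 76.1-fold lower level with an interval of 20.6 to 635. Unigene0068253, below the level called measured, had 0 reads in FL ovule and 48 in WT fiber, at least 18.7-fold lower against a floor of 3 reads.

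A separate HOX3 text, taken from cacao, was higher in FL ovule. Unigene0054111 had 6.81 RPKM in FL ovule and 1.22 RPKM in WT fiber, which is 5.58-fold higher in FL ovule (4.19 to 7.55). The same name is used in rice for a class II HD-ZIP protein, so its place in class IV is uncertain. GL2-like 1, a cotton relative of GLABRA 2, differed by unigene. It had 2.88 RPKM in FL ovule and 3.09 RPKM in WT fiber for its measured unigene, Unigene0095346. The ratio of 0.934 had an interval of 0.824 to 1.06, and its log2 value ranged from -0.61 to 0.21 with the scaling. The other 3 texts, all below 1 RPKM in both libraries, were higher in FL ovule. Unigene0095348 was 2.52-fold higher (1.70 to 3.80), Unigene0095347 was 1.73-fold higher (1.16 to 2.62) and Unigene0095349 was 3.59-fold higher (2.02 to 6.79).

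**Figure D2:**
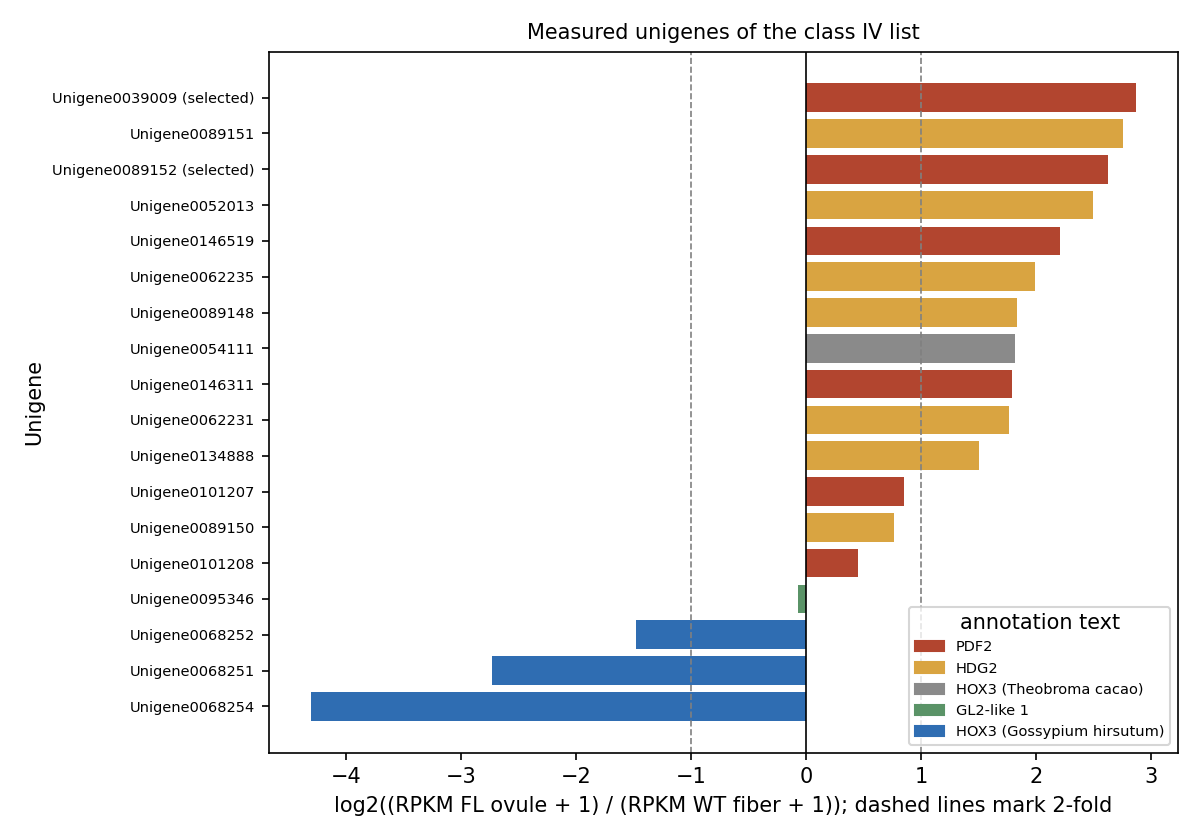
Log2 ratio of FL ovule over WT fiber, with a pseudocount of 1 RPKM, for the 18 measured unigenes of the class IV list, coloured by annotation text; dashed lines mark 2-fold and there is 1 library per group. The selected unigenes stand at 2.87 and 2.63, the 3 measured HOX3 texts of Gossypium hirsutum between -4.31 and -1.48.

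The makeup of class IV transcripts, which library scaling cannot alter, therefore differed between the libraries. PDF2 texts held 42.5% of the summed class IV RPKM in FL ovule and 7.74% in WT fiber. HDG2 texts held 44.3% of it in FL ovule, against 7.54% in WT fiber. HOX3 of Gossypium hirsutum held 1.73% in FL ovule, against 77.6% in WT fiber. The PDF2 shares include the selected pair. Of the PDF2 sum in FL ovule, 32.9%, 31.4% and 21.3% came from unigenes of 676, 848 and 256 bases. Fragments of 1 transcript can each add to such a sum, and the shares were not recomputed without short unigenes. Within a library, Unigene0089152 stood at 10.4 times the level of the HOX3 unigene Unigene0068254 in FL ovule, while in WT fiber Unigene0068254 was 30.7 times higher than Unigene0089152. For Unigene0039009 the level was 6.70 times that of Unigene0068254 in FL ovule, and in WT fiber Unigene0068254 was 109 times higher. Unigene0039009, Unigene0089152 and Unigene0068254 ranked 1, 5 and 300 among the 300 homeobox ratios. A contrast between them is thus a description of extremes. The sum over the whole list was 104 RPKM in FL ovule and 74.1 RPKM in WT fiber, a ratio of 1.41 whose direction turned under the common RPKM sum, TMM and DESeq2 scalings and with unigenes of 1000 bases or more.

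**Figure D3:**
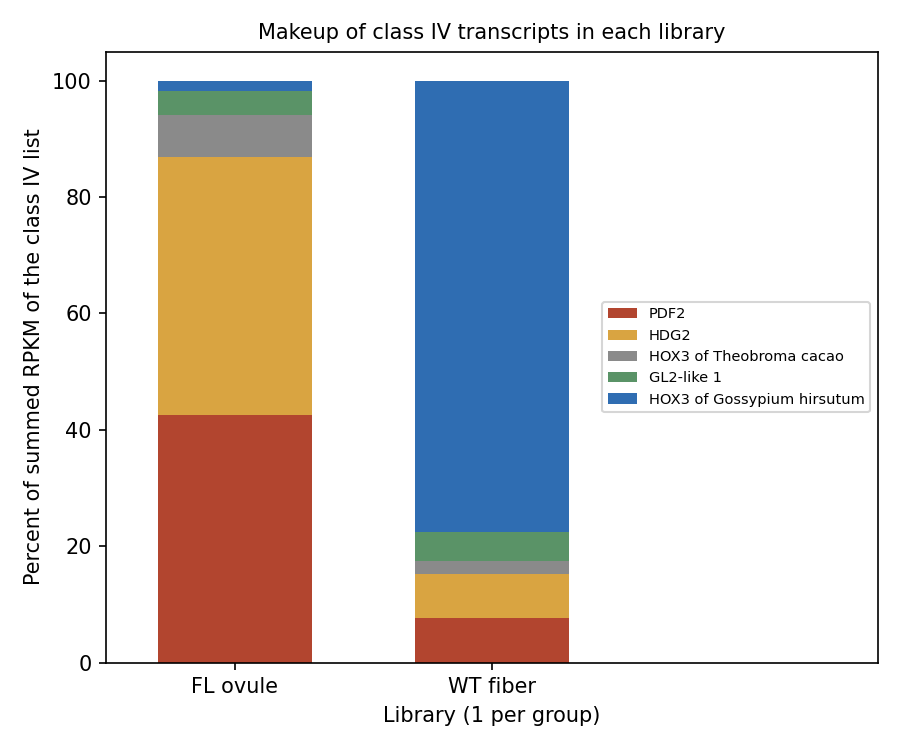
Percent of the summed RPKM of all 31 class IV unigenes held by each annotation text, in FL ovule (left bar) and WT fiber (right bar), 1 library each. PDF2 and HDG2 texts fill 42.5% and 44.3% of the FL ovule bar, and HOX3 of Gossypium hirsutum fills 77.6% of the WT fiber bar. The PDF2 parts include the selected pair, which was chosen for its ratio.

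Homeobox texts outside the class IV list had smaller ratios at the median. Of 83 measured unigenes with other HD-ZIP texts, 20 (24.1%) were higher in FL ovule by 2-fold or more and 7 (8.43%) were lower by that much, beside 15.3% and 10.5% of all measured unigenes. Their median log2 ratio was 0.65, against 1.63 for class IV without the selected pair. FL ovule was the higher library in 74.1% of these HD-ZIP differences, beside 59.3% over all unigenes. After rescaling to a common RPKM sum these shares were 13.3% for other HD-ZIP texts and 25.7% over all unigenes. Of 199 other homeobox unigenes, 45 (22.6%) were higher and 13 (6.53%) lower, with a median of 0.48. FL ovule was the higher library in 77.6% of these, and in 53.2% with DESeq2 size factors, which gave 23.3% over all unigenes. The largest ratios at 5 RPKM or more among other HD-ZIP texts were those of HD4 (Unigene0053386), with 12.97 RPKM in FL ovule and 3.07 RPKM in WT fiber, and of a START-domain HD-ZIP protein (Unigene0106067), with 19.2 RPKM in FL ovule and 5.34 RPKM in WT fiber. That START-domain text can name class III or class IV proteins, so the other HD-ZIP list may hold members of class IV. Of its 83 measured unigenes, 17 carry such a text, a set chosen after the values were seen. They make up 8 of the 20 higher and 1 of the 7 lower ones. Among the other homeobox texts, the ZF-HD protein Unigene0049170 had 9.93 RPKM in FL ovule and 0.569 RPKM in WT fiber, close to Unigene0039009. The homeodomain-like Unigene0001680 had 0.0586 RPKM in FL ovule, from 2 reads, and 7.65 RPKM in WT fiber.

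Genes of the epidermis and cuticle included large ratios in both directions. Of 18 measured unigenes, 3 (16.7%) were higher in FL ovule by 2-fold or more, a share near the 15.3% of all measured unigenes. Lower by that much were 6 (33.3%), beside 10.5% of all. The median log2 ratio was -0.27 and ranged from -1.12 to 0.30 with the scaling. With DESeq2 size factors the counts became 3 and 9 of 17, beside 6.8% and 22.3% of all unigenes. Without the 30 most-read unigenes they became 4 and 5 of 19, beside 28.4% and 6.3% of all. PROTODERMAL FACTOR 1 (PDF1), an extracellular proline-rich protein of the outer cell layer whose Arabidopsis promoter carries the L1 box, is an example. PDF1.3 of cotton (Unigene0045748) had 22.1 RPKM in FL ovule and 183 RPKM in WT fiber, a log2 ratio of -2.99. A PDF1-like text (Unigene0057847) had 19.7 RPKM in FL ovule and 2.98 RPKM in WT fiber, a log2 ratio of 2.37.

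Enzymes and receptors of the same list were divided too. FIDDLEHEAD-like protein, a fatty acid elongation enzyme of the epidermis (Unigene0064901), had 56.7 RPKM in FL ovule and 497 RPKM in WT fiber, and its log2 ratio of -3.11 had the largest size in the list. CER1, an enzyme of cuticular wax alkane synthesis (Unigene0144181), had 9.15 RPKM in FL ovule and 0.676 RPKM in WT fiber, 13.5-fold higher in FL ovule (10.4 to 17.8). CRINKLY4, a receptor kinase named for its part in maize epidermis (Unigene0104117), had 28.1 RPKM in FL ovule and 29.2 RPKM in WT fiber. Its relative CRINKLY4 related 1 (Unigene0079968) had 5.64 RPKM in FL ovule and 0.728 RPKM in WT fiber, and CRINKLY4 related 2 (Unigene0085497) had 1.38 RPKM in FL ovule and 7.52 RPKM in WT fiber.

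**Figure D4:**
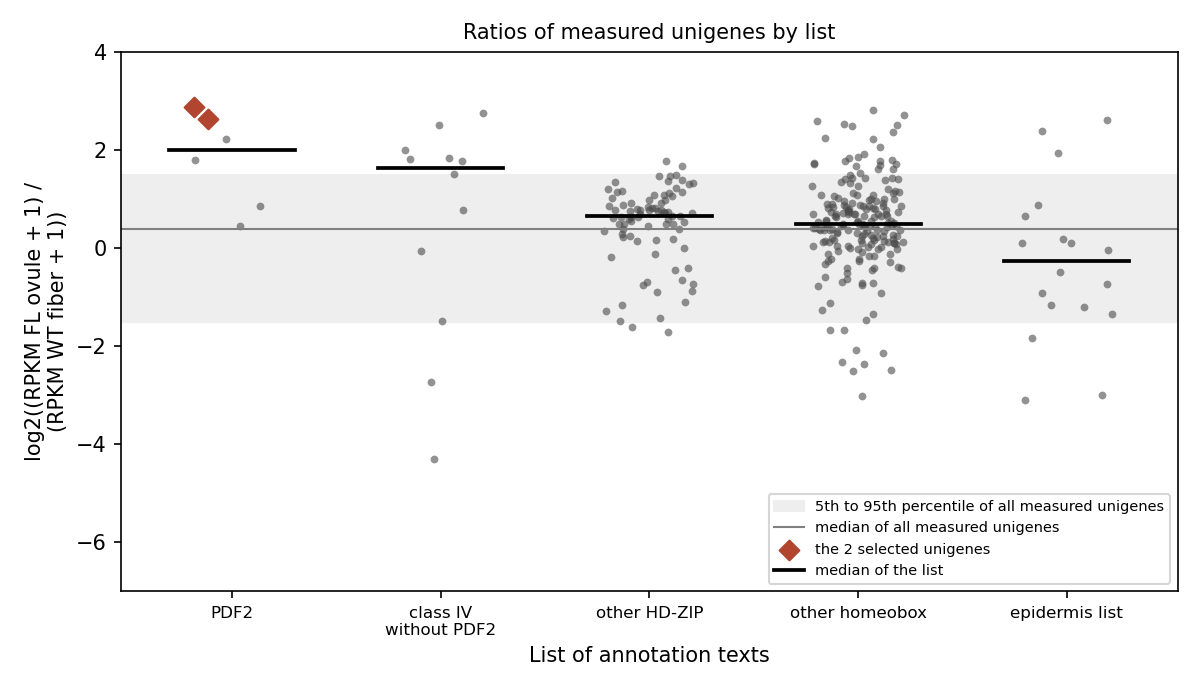
Log2 ratio of FL ovule over WT fiber (RPKM plus 1) for each measured unigene of 5 lists of annotation texts, 1 library per group; black bars are list medians, diamonds the selected PDF2 unigenes, the grey line the median of all measured unigenes (0.39) and the band their 5th to 95th percentile (-1.52 to 1.49). Both selected unigenes and 2 further PDF2 texts lie above the band, while the epidermis list spans -3.11 to 2.60.

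The list of trichome and fiber texts was mostly not made of regulators. Of its 78 measured unigenes, 59 were trichome birefringence texts, a family that acetylates wall polysaccharides, and 7 were HDG2 texts already described. The whole list had 19 (24.4%) higher in FL ovule and 17 (21.8%) lower. These counts became 14 and 21 with a common RPKM sum, TMM or DESeq2 and 30 and 12 without the 30 most-read unigenes. The shares of all measured unigenes moved too, to 6.8% and 22.3% with DESeq2 and 28.4% and 6.3% without the 30 most-read. Of the remaining 12, a set chosen after the values were seen, 2 (16.7%) were higher by 2-fold or more and 2 (16.7%) were lower, beside 15.3% and 10.5% of all measured unigenes. The higher ones were a MYB5-like repressor (Unigene0065047), with 4.48 RPKM in FL ovule and 0.854 RPKM in WT fiber, and a caprice text of Gossypium arboreum (Unigene0018636), with 2.30 RPKM in FL ovule and 0.597 RPKM in WT fiber. The lower ones were CPC (Unigene0056600), with 6.46 RPKM in FL ovule and 17.0 RPKM in WT fiber, and Branchless trichome (Unigene0056028), with 10.6 RPKM in FL ovule and 25.7 RPKM in WT fiber. CAPRICE or CPC, which inhibits trichome fate in Arabidopsis, thus had texts on both sides, and a further one (Unigene0046585) had 18.5 RPKM in FL ovule and 9.16 RPKM in WT fiber. MYB25-like, which is required for fiber initiation in cotton, also differed by text. Unigene0131037 had 12.01 RPKM in FL ovule and 17.6 RPKM in WT fiber, and Unigene0055603 had 1.27 RPKM in FL ovule and 0.443 RPKM in WT fiber. TTG1-like protein, a WD40 cofactor of trichome formation (Unigene0071500), had 22.3 RPKM in FL ovule and 26.7 RPKM in WT fiber. The largest ratios in the whole list belonged to trichome birefringence-like 33 (Unigene0090017), with 0.460 RPKM in FL ovule and 70.3 RPKM in WT fiber, and trichome birefringence-like 28 (Unigene0137711), with 1.13 RPKM in FL ovule and 29.9 RPKM in WT fiber.

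Markers of dividing cells that differed by 2-fold were mostly higher in FL ovule. With 1 library per group, a direction shared with the PDF2 texts shows no link between them. Of 106 measured histone and mitotic cyclin unigenes, 60 (56.6%) were higher in FL ovule by 2-fold or more and 7 (6.60%) were lower by that much, beside 15.3% and 10.5% of all. With DESeq2 size factors the counts became 47 and 13 of 102, beside 6.8% and 22.3% of all. Their summed level was 5838.5 RPKM in FL ovule and 1469 RPKM in WT fiber, and of the 150 unigenes on the list 0 had no read in FL ovule and 12 had none in WT fiber. Histone H3.2 (Unigene0072812) had 60.7 RPKM in FL ovule and 1.37 RPKM in WT fiber. Of 82 measured embryo and endosperm texts, 33 (40.2%) were higher by 2-fold or more and 17 (20.7%) lower, beside 15.3% and 10.5% of all. With DESeq2 size factors these counts became 24 and 24 of 81, beside 6.8% and 22.3% of all. These texts summed to 1483 RPKM in FL ovule and 1225 RPKM in WT fiber, and of 121 on the list 3 had no read in FL ovule and 10 had none in WT fiber. Of 84 measured green tissue texts 19 (22.6%) were higher and 10 (11.9%) lower, beside 15.3% and 10.5% of all. With DESeq2 size factors the counts were 9 and 19 of 90, beside 6.8% and 22.3% of all. The green tissue texts summed to 800.5 RPKM in FL ovule and 1236 RPKM in WT fiber. The part of these cell types in the PDF2 difference was not tested.

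The annotated unigenes nearest to each selected one in level were found by distance in log2(RPKM + 1) over the 2 libraries, a likeness that says nothing of shared function. Nearest to Unigene0039009 were a protein named only by a clone code (Unigene0055952, distance 0.0339), a polyprotein (Unigene0091469, 0.0558) and a histone H2B.1-like protein (Unigene0061657, 0.0750). Unigene0061657 had 9.99 RPKM in FL ovule and 0.441 RPKM in WT fiber. Nearest to Unigene0089152 were IQ-domain 31 (Unigene0046818, 0.0801), a C2H2-like zinc finger protein (Unigene0075992, 0.0804) and a microtubule motor protein (Unigene0083370, 0.0894). The last had 15.5 RPKM in FL ovule and 1.48 RPKM in WT fiber.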

How the data were processed

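RNA was sequenced on an Illumina HiSeq instrument after oligo-dT enrichment or removal of ribosomal RNA, per the labels' protocols. Which of these RNA parts the deposited values come from was not stated. Bowtie and Bowtie2 are named in the submitters' processing notes, whereas the assembler and strand setting were not given in the sources used here. Each deposited table lists a count of unique reads per unigene, as per the file headers. The deposited RPKM was recomputed from count, length and header total, with a largest relative error of 2.4e-14. The authors' coverage column carries a percent sign but exceeds 100 in 14 rows of FL ovule and 9 rows of WT fiber, so it is treated as a deposited score.

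Tables were joined on unigene identifier, with an absent row as 0 reads. With 1 library per group no test was possible. Ratios are log2((RPKM FL ovule + 1)/(RPKM WT fiber + 1)), and folds are RPKM ratios without the pseudocount. Intervals are 95% and exact (scipy 1.17.1), tested on simulated data. TMM factors came from edgeR 4.0.16 and size factors from DESeq2 1.42.0, used only as scalings. Lists were patterns on annotation text without the species name. The members and lists were chosen with earlier results of these data known. Named unigenes are the 6 PDF2 texts, the 10 most abundant and 2 most different other class IV texts, the 2 most different of each further list at 5 RPKM or more, and the 3 nearest annotated unigenes. Marker lists are given mainly as sums, and further named unigenes were chosen after their values were seen.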

Additional observations from a re-analysis of the deposited data

How the results depend on the processing

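No paired analysis was possible because each group has 1 library, and for the same reason no replicate could be left out. Scaling, pseudocount, the RPKM filter and the fold threshold were varied 1 at a time. Changes of list (without the selected pair, the cacao HOX3 text, or the trichome birefringence and class IV texts, or with species names searched) were chosen after seeing the data. Both selected unigenes stayed at least 2-fold higher in FL ovule under all 7 scalings. The log2 ratio of Unigene0039009 (2.87) became 3.40 without the 30 most-read unigenes, 4.17 with a pseudocount of 0.1 and 1.41 with a pseudocount of 5. That of Unigene0089152 (2.63) became 2.11 with a common RPKM sum, 2.15 with TMM, 2.07 with DESeq2 size factors, 3.07 without the 30 most-read unigenes, 3.18 with a pseudocount of 0.1 and 1.59 with 5. Their difference of 0.24 became -0.17 with a pseudocount of 5. The log2 ratio of summed PDF2 RPKM (2.95) became 2.32 with a common sum, 2.34 with TMM, 2.24 with DESeq2, 3.31 without the 30 most-read, 2.02 with unigenes of 1000 bases or more and 2.42 without the selected pair. The summed class IV RPKM (0.49) became -0.14 with a common sum, -0.12 with TMM, -0.22 with DESeq2, 0.63 with the median ratio, 0.37 with the upper quartile, 0.85 without the 30 most-read, -1.18 with unigenes of 1000 bases or more and 0.41 without the cacao HOX3 text.

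Counts are given as higher and lower in FL ovule. The shares of all measured unigenes, 15.3% and 10.5%, moved with the scaling as well. They became 7.3% and 21.0% with a common sum, 7.6% and 20.1% with TMM and 6.8% and 22.3% with DESeq2. Without the 30 most-read they became 28.4% and 6.3%. Such shares were not computed for the other pseudocounts, the 5 RPKM filter or the 4-fold threshold. PDF2 texts numbered 2 and 0 without the selected pair. Class IV texts (11 and 3) became 5 and 2 with a pseudocount of 5, 7 and 2 with a 5 RPKM filter, and 5 and 2 at 4-fold. Other HD-ZIP texts (20 and 7) became 2 and 13 with a common sum, 4 and 13 with TMM, 3 and 15 with DESeq2, 43 and 4 without the 30 most-read, 41 and 12 with a pseudocount of 0.1, 2 and 1 with 5, 11 and 4 with the 5 RPKM filter, and 0 and 0 at 4-fold. Other homeobox texts (45 and 13) became 27 and 20, 28 and 19, 25 and 22, 93 and 14, 73 and 17, 13 and 7, 20 and 9, and 10 and 7 under the same settings in that order. The epidermis list (3 and 6) became 5 and 7 with a pseudocount of 0.1, 2 and 2 with 5, and 2 and 2 at 4-fold. The trichome and fiber list (19 and 17) became 14 and 21 with a common sum, TMM or DESeq2, 30 and 12 without the 30 most-read, 30 and 18 with a pseudocount of 0.1, 5 and 9 with 5, 7 and 15 with the filter, 4 and 5 at 4-fold, and 2 and 2 without trichome birefringence and class IV texts. All marker lists pooled (126 and 62) became 93 and 98 with a common sum, 95 and 99 with TMM, 90 and 103 with DESeq2, 77 and 33 with a pseudocount of 5, and 66 and 29 at 4-fold. Causes were not tested beyond what each setting does by construction. Low read numbers, such as 5 in WT fiber for Unigene0039009 and 2 in FL ovule for Unigene0068252, leave wide counting intervals.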

Other observations

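Further sets were chosen after their values were seen and are given as values. They overlap lists described above. The START-domain texts belong to the other HD-ZIP list, and the gene ontology set includes the PDF2 unigenes Unigene0101207 and Unigene0101208. Texts that name a START-domain HD-ZIP protein numbered 17 measured unigenes. Of these, 8 (47.1%) passed 2-fold toward FL ovule and 1 (5.88%) passed it toward WT fiber. The background shares were 15.3% and 10.5%. The START-domain texts summed to 79.9 RPKM in FL ovule and 34.8 RPKM in WT fiber. Unigenes with the deposited gene ontology term epidermis development numbered 13 measured. By the same 2-fold rule 3 (23.1%) were higher and 3 (23.1%) lower, beside the same background of 15.3% and 10.5%. Their summed level was 105 RPKM in FL ovule and 786 RPKM in WT fiber.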
